A study of Homo sapiens with 9 samples.

Results

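Of the 36770 ZNF143 peaks mapped by ChIP-nexus in wild-type HEC-1-B cells on chromosomes 1 to 22 and X, 785 (2.13%, 95% confidence interval 1.99 to 2.29) overlapped a CTCF peak by at least 1 bp and overlapped no peak of RAD21, a cohesin subunit. These 785 sites are called RAD21-uncalled CTCF sites below. The name says only that the ZNF143 peak met no RAD21 call in wild type, not that cohesin was absent. The values that chose them are the wild-type peak calls of the 3 proteins, so their wild-type strengths are given as a description. The other wild-type ZNF143 peaks comprised 26102 with both CTCF and RAD21 (triple sites), 715 with RAD21 and no CTCF, and 9168 with neither. The 785 sites lay on 783 CTCF peaks, since 2 CTCF peaks were shared by 2 sites or more.

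CTCF is a zinc finger protein that binds a long DNA motif and stops cohesin as cohesin extrudes chromatin loops, which is why CTCF and cohesin usually occupy the same places. RAD21 is the subunit that closes the cohesin ring. ZNF143 is a zinc finger activator best known from the promoters of small RNA genes and housekeeping genes, and it is often mapped at CTCF sites as well. A site with ZNF143 and CTCF but no RAD21 call is therefore an uncommon combination, and the other libraries of the series show how such sites fared in other cells.

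HEC-1-B is an established human uterine adenocarcinoma line, and ChIP-nexus trims immunoprecipitated DNA with exonucleases to the edge of the bound protein. Wild-type cells had 1 library each for ZNF143, CTCF and RAD21. Cells with the genotype ZNF143KO had 1 library each for CTCF and RAD21. CTCF-AID cells, in which CTCF carries an auxin-inducible degron and the auxin IAA (500 μM) degrades it where TiR1 is expressed, had 1 library each for CTCF and ZNF143 at 0 h and at 24 h of IAA. The knockout and the degradation were taken from the labels, since neither ZNF143 in the knockout cells nor CTCF protein after auxin was measured in the lists used here. With 1 library per group no difference between conditions has a replicate check and no test between them was possible; every interval below covers counting error over sites only.

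Depth differed between the libraries, as judged from the background reads per kb derived from the deposited peak values. The knockout RAD21 library had 26.1 against 7.81 in wild type, a ratio of 3.35, and the knockout CTCF library had 18.9 against 8.63. In CTCF-AID cells the ZNF143 libraries had 13.5 at 0 h and 12.1 at 24 h, against 5.96 in wild type. The CTCF libraries of these cells had 12.8 at 0 h and 3.88 at 24 h, against the 8.63 of wild type.

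Both factors were weak at most RAD21-uncalled CTCF sites. Peak strength is given as the authors' signal value, a fold enrichment over background. It is also given as the rank in the list from 0 (weakest) to 100 (strongest). Signals were compared between classes only within a list. The highest derived summit count was 54 reads in the wild-type ZNF143 list, 62 in the 0 h ZNF143 list and 58 in the 24 h ZNF143 list. These values were shared by 2.88%, 3.39% and 5.51% of the peaks, so counts do not order the strongest peaks. Under the model that gave the counts, peaks of equal count are ordered in signal and rank by their background alone. In the knockout RAD21 list the highest count, 44 reads, was shared by 12.3% of the peaks. The ZNF143 signal ranged from 2.33 to 31.3 with a median of 7.16 (quartiles 5.97 and 9.60), against a median of 10.3 at triple sites. The median ZNF143 rank was 21.4 against 50.9 at triple sites. The median of the ZNF143 count at the summit was 10 reads against 12, and the median peak width was 41 bp against 66 bp.

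CTCF was also weaker than at triple sites, by a wider margin than ZNF143. Its signal at the 785 sites ranged from 2.36 to 27.7 with a median of 11.3 (quartiles 7.77 and 15.4), against a median of 20.9 at triple sites. The median CTCF rank was 37.5 against 74.8, the median summit count 18 against 32 reads, and the median width of the CTCF peak 75 bp against 122 bp. At the triple sites the median rank in the RAD21 list was 71.9.

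**Figure D1:**
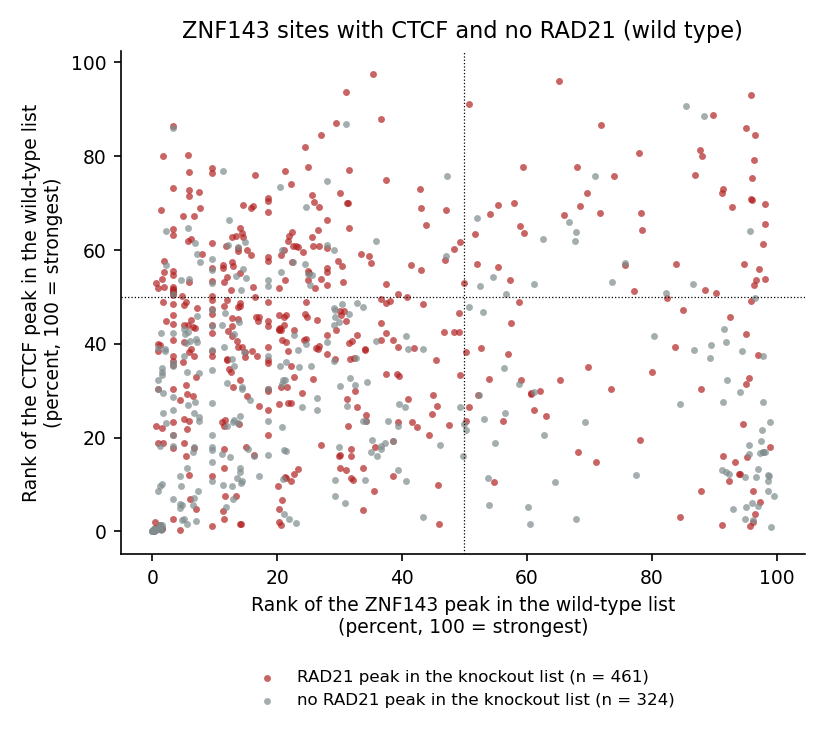
Each point is 1 of the 785 RAD21-uncalled CTCF sites, with the rank of its wild-type ZNF143 peak on the x axis and of its CTCF peak on the y axis (percent, 100 is the strongest peak of the list). Red points have a RAD21 peak in the ZNF143 knockout list (461) and grey points have none (324), and most points lie on the weak side of the ZNF143 list, with 76 in its strongest 10%.

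The sites were not of one kind. In the plot of ranks, 439 of the 785 (55.9%) were in the lower 50% of both lists, 170 (21.7%) had only CTCF in the upper 50%, 110 (14.0%) only ZNF143, and 66 (8.41%) both. When the ZNF143 list was divided into 10 strength groups of equal size, the weakest held 231 sites (29.4%), the eighth 15 and the strongest 76 (9.68%). By construction the strongest group holds about 10% of all ZNF143 peaks, so the share of these sites there was near that of the whole list. Among triple sites the strongest group held 3.90%, and among peaks with neither partner 25.5%. At the 76 sites of the strongest group, ZNF143 peaks were broad, with a median width of 198.5 bp, and CTCF was weak, with a median signal of 8.11 and a median CTCF rank of 20.5.

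Summits of the 2 factors were close, which the required overlap of the 2 peaks in part fixed in advance. The median distance from the ZNF143 summit to the nearest CTCF summit was 11 bp (quartiles 4 and 25), against 10 bp (4 and 18) at triple sites. It was at most 20 bp at 552 of the 785 sites (70.3%) and at 79.3% of triple sites. Distances over 50 bp occurred at 91 sites (11.6%) and at 1.92% of triple sites. In the strongest ZNF143 group the median distance was 48.5 bp, against 12 bp at triple sites of the same group, and 36 of its 76 sites exceeded 50 bp.

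The 3 sites of highest ZNF143 signal had weak CTCF, which was called in none of the other libraries. At chr11:117186941-117187123 (hg19, as are all coordinates here) the wild-type signals were 31.3 for ZNF143 and 6.45 for CTCF, with summits 76 bp apart. At chr9:115913063-115913296 they were 29.9 and 4.75, with summits 47 bp apart, and at chr9:99638178-99638356 they were 29.9 and 8.57, 73 bp apart. All 3 had a ZNF143 peak in CTCF-AID cells at 0 h, with signals of 25.5, 26.2 and 23.0, and at 24 h, with signals of 22.4, 25.3 and 23.8. None of the 3 had a peak in the knockout CTCF, knockout RAD21, 0 h CTCF or 24 h CTCF lists.

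The 3 sites of highest CTCF signal were of the other kind in wild type, with a modest ZNF143 peak. The CTCF signal was 27.7 at chr9:35816881-35816930, 26.9 at chr22:22863182-22863242 and 26.0 at chr15:41522977-41523042, beside ZNF143 signals of 8.56, 12.3 and 8.10. All 3 kept CTCF in the knockout, with signals of 18.3, 24.7 and 21.1, and all 3 had a weak RAD21 peak there, with signals of 8.07, 6.98 and 7.76. The CTCF peak of the chromosome 15 site itself touched a wild-type RAD21 peak, 72 bp from the ZNF143 peak. In CTCF-AID cells this site had ZNF143 signals of 19.3 at 0 h and 22.4 at 24 h, and CTCF signals of 17.5 and 6.79. The chromosome 22 site had ZNF143 (10.6) and CTCF (12.6) at 0 h only, and the chromosome 9 site had only CTCF at 0 h (8.15).

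How far the sites lay from a RAD21 call varied widely. The nearest wild-type RAD21 peak was a median 5022 bp away (quartiles 745 and 18056 bp), and 99.1% of sites had one within 100000 bp. It was within 100 bp at 81 sites (10.3%, 8.28 to 12.7) and within 500 bp at 175 (22.3%), compared with 2.01% and 7.67% of ZNF143 peaks with neither partner. At 50 sites (6.37%) the CTCF peak overlapped a RAD21 peak although the ZNF143 peak did not, and the median gap there was 11 bp.

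Sites on either side of the overlap rule resembled each other. The 24 sites within 10 bp of a RAD21 peak had median signals of 6.46 for ZNF143 and 14.3 for CTCF, and the 53 triple sites with at most 10 bp of RAD21 overlap had 6.49 and 14.1. The sites nearest to a RAD21 peak, chr1:34090713-34090751 and chr22:30394712-30394753, missed it by 1 bp and had ZNF143 signals of 7.62 and 6.03. The triple sites with the shortest overlap, 1 bp, were chr11:119039286-119039361 and chr6:52175145-52175181, with ZNF143 signals of 11.3 and 8.68 and RAD21 signals of 8.30 and 7.32.

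Some of the sites crowded together. In 22 windows of 100 kb, a window size chosen after the data were seen, there were 3 sites or more, 92 sites in all (11.7%). The fullest window, 46400001 to 46500000 of chromosome 16, held 8 sites among 26 ZNF143 peaks. The local background at the summit, derived from the deposited values, had a median of 3.42 reads for ZNF143 and 3.64 for CTCF at these 92 sites, against 0.283 and 0.427 at the other 693. Their median ZNF143 signal was 4.91 against 7.38 elsewhere. The part of this background in the results was not tested, and each leading share is given below without these windows where it moved.

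The deeper RAD21 library of the knockout had a peak at most of the sites that lacked one in wild type. Of the 785 sites, 461 (58.7%, 55.2 to 62.2) overlapped a knockout RAD21 peak, where 74.5% of all wild-type ZNF143 peaks did so. The share was 99.1% at triple sites, 65.9% (62.3 to 69.3) at sites with RAD21 and no CTCF, and 6.64% (6.14 to 7.17) at ZNF143 peaks with neither. The difference from triple sites was -40.4 percentage points (-43.9 to -37.0). Triple sites were chosen for a wild-type RAD21 call and the 785 for having none, so its direction was in part fixed by the rule. The difference from the ZNF143 peaks with neither was 52.1 points (48.6 to 55.5). With the knockout list held to its 48906 strongest peaks, the number in the wild-type list, the share was 42.3%. Since the knockout differed from wild type in genotype and 3.35 times in background reads, a gain of RAD21 and its detection at greater depth cannot be told apart.

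These knockout RAD21 peaks were weak. Their signal ranged from 2.48 to 18.9 with a median of 8.75 (quartiles 7.24 and 10.9), a median rank of 21.3 in the knockout list, against 17.7 and a rank of 72.2 at triple sites. At those triple sites the upper quartile of the summit count was 44 reads, the highest count of the list, so counts do not order the strongest of them. When the knockout list was divided into 10 strength groups, 392 of the 461 (85.03%) fell into the 4 weakest. In those 4 groups, 70.0%, 61.1%, 43.8% and 23.3% of all knockout RAD21 peaks had no wild-type RAD21 peak, from the weakest group up. In the strongest 3 groups that share was at most 0.141%, and these held 4 of the 461. The median distance from the wild-type CTCF summit to the nearest knockout RAD21 summit was 11 bp (quartiles 4 and 22) at the 461 sites. At triple sites it was 15 bp (6 and 29). Sites were counted here only where the RAD21 peak overlapped a ZNF143 peak that itself overlapped a CTCF peak. Short distances were thus largely fixed by this choice.

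Sites with knockout RAD21 had the stronger CTCF. Their wild-type CTCF signal had a median of 12.9 (quartiles 9.17 and 16.6), against 8.91 (6.79 and 12.3) at the 324 sites without it. The median ZNF143 signals were 7.35 and 6.89, with quartiles of 6.12 and 9.48 against 5.63 and 9.85. Over the 10 strength groups of the wild-type CTCF list, the share with knockout RAD21 was 35.0% (26.5 to 44.2) in the weakest, 69.7% (60.7 to 77.8) in the fifth and 86.1% (70.5 to 95.3) in the eighth. Over the groups of the ZNF143 list it was 48.5% in the weakest, 70.7% in the fifth and 51.3% (39.6 to 63.0) in the strongest, with no steady order. Triple sites weighted to the CTCF strengths of the 785 sites had knockout RAD21 in 92.3% of cases, a difference of -33.6 points. Wild-type RAD21 calls chose both classes, so this direction was in part fixed by the rule at any CTCF strength.

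The site of highest knockout RAD21 signal, 18.9, was chr9:135777477-135777528, where ZNF143 was near the bottom of its list (signal 4.96), CTCF had 22.2 and the nearest wild-type RAD21 peak was 24 bp away. At chr17:20487410-20487479 knockout RAD21 had 18.2 although the nearest wild-type RAD21 peak was 62667 bp away, with signals of 6.03 for ZNF143 and 17.6 for CTCF. The third, chr1:25236029-25236109, had 18.0, with a wild-type RAD21 peak 59 bp away. Conversely, strong CTCF went without knockout RAD21 at chr15:74284683-74284786 (CTCF 25.0, ZNF143 16.7), chr6:13615471-13615653 (24.4 and 17.8) and chr10:99185834-99185892 (23.9 and 8.08). These 3 all had CTCF in the knockout, with signals of 21.5, 19.5 and 23.6.

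CTCF itself was found again at most of the sites in the ZNF143KO library. That library had 2.19 times the wild-type background reads, and the part of depth in these shares was not tested. A knockout CTCF peak overlapped 669 of the 785 (85.2%, 82.5 to 87.6), where 73.1% of all wild-type ZNF143 peaks had one and 99.3% of triple sites did. Triple sites at the same CTCF strengths had 93.0%. Where CTCF was in the upper 50% of its list, knockout CTCF was found at 169 of 170 sites with ZNF143 in the lower 50%. With ZNF143 in the upper 50% it was found at 66 of 66. Triple sites were alike there, with 99.9% in the sixth CTCF group and 100% in each stronger group. Among the 461 sites with knockout RAD21, 435 (94.4%, 91.8 to 96.3) had knockout CTCF, and among the 324 without it 234 (72.2%, 67.0 to 77.0). Outside the crowded windows knockout CTCF was found at 88.9% of sites and knockout RAD21 at 61.2%.

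**Figure D2:**
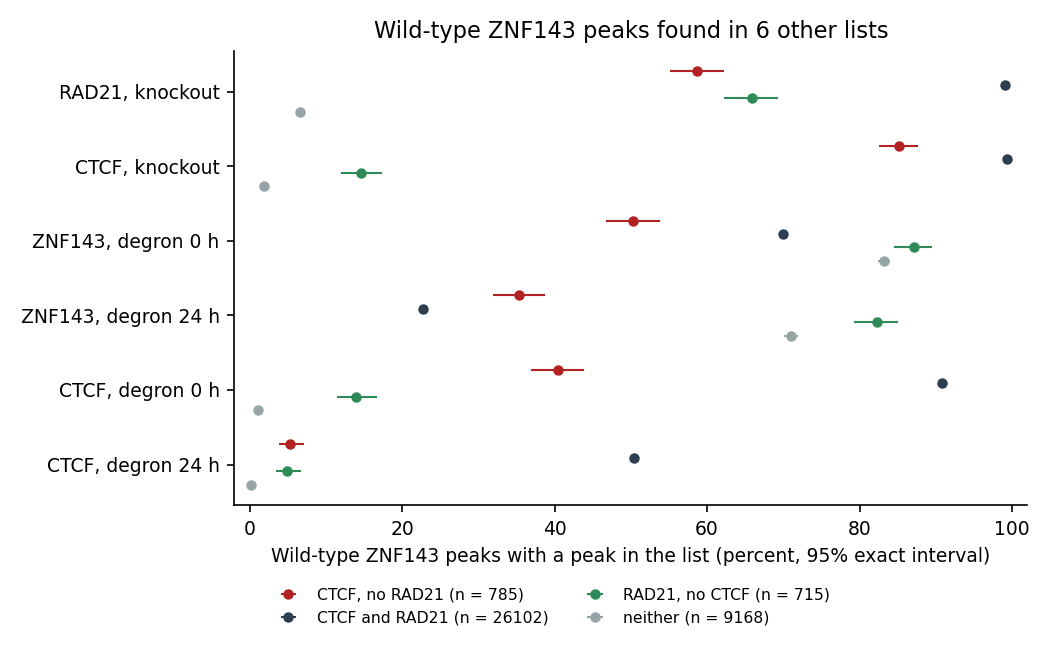
Share of wild-type ZNF143 peaks (x axis, percent) that overlap a peak in each of 6 other lists (rows), for the 4 classes of ZNF143 peaks; bars are exact 95% intervals over sites. The RAD21-uncalled CTCF sites (red) lie between the triple sites and the peaks with neither partner for RAD21 and CTCF in the knockout, and have the lowest share of ZNF143 at 0 h, 50.3%.

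CTCF peaks without RAD21 also occur without ZNF143, which allows the sites to be compared from the side of CTCF. Of 12507 wild-type CTCF peaks that overlapped no RAD21 peak, 743 overlapped a ZNF143 peak and 11764 did not. Those with ZNF143 were the stronger, with a median CTCF signal of 11.1 against 7.87. A knockout RAD21 peak was found at 57.9% (54.2 to 61.5) of those with ZNF143 and 35.3% (34.5 to 36.2) of those without, against 36.7% of all 12507. The difference was 22.6 points (18.9 to 26.2). Peaks without ZNF143 weighted to the same CTCF strengths reached 47.2%, and the share was higher with ZNF143 in 8 of the 9 CTCF strength groups that held both kinds.

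For CTCF in the knockout the shares were 85.3% with ZNF143 and 77.8% without, beside 78.3% of all 12507. Weighted to the same CTCF strengths, the peaks without ZNF143 had 86.9%, so that the order was not kept. The gap was wider in the degron line. At 0 h, CTCF-AID cells had a CTCF peak at 39.7% (36.2 to 43.3) of the peaks with ZNF143 and at 4.81% (4.43 to 5.21) of those without, where 6.88% of all 12507 had one. The peaks without ZNF143 had 10.6% at the same CTCF strengths, and the peaks with ZNF143 were higher in 9 of 9 groups. Outside the crowded windows the values were 37.6% and 4.52%.

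**Figure D3:**
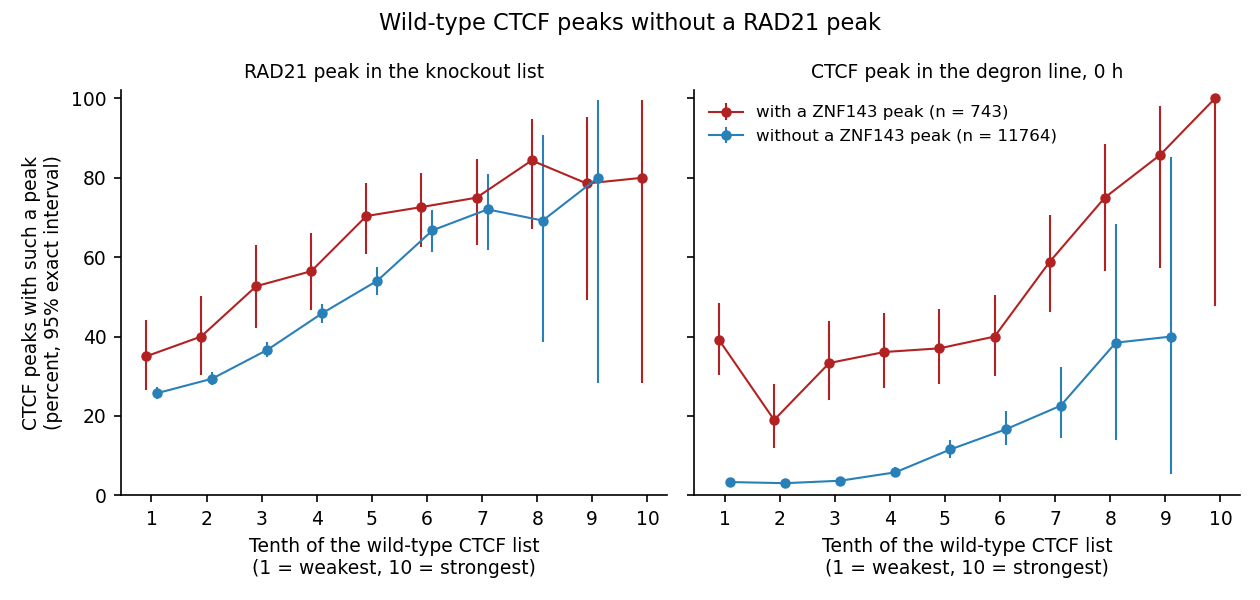
Share (y axis, percent, with exact 95% intervals over peaks) of wild-type CTCF peaks without a RAD21 peak that overlapped a RAD21 peak of the knockout list (left) or a CTCF peak of the degron line at 0 h (right), by strength group of the wild-type CTCF list (x axis). Peaks with ZNF143 (red, 743) lie above those without (blue, 11764) in 9 of 9 groups at 0 h and in 8 of 9 for knockout RAD21, with wide intervals in the strongest groups.

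Before auxin, many of the sites already had no called peak in the degron line. Background reads per kb at 0 h were 2.27 times those of wild type for ZNF143 and 1.48 times for CTCF. At 0 h a ZNF143 peak was found at 395 of the 785 (50.3%, 46.8 to 53.9), against 73.1% of all wild-type ZNF143 peaks and 69.9% of triple sites. Weighted to the ZNF143 strengths of the 785 sites, triple sites had 52.2%, a difference of -1.84 points. A CTCF peak was found at 317 sites (40.4%, 36.9 to 43.9), against 65.9% of all wild-type ZNF143 peaks. Triple sites had 90.9%, and 75.1% at the CTCF strengths of the 785 sites. All 76 sites of the strongest ZNF143 group had ZNF143 at 0 h, and 27 of them (35.5%) had CTCF. Retention after auxin is therefore given only over sites that had the peak at 0 h.

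ZNF143 mostly remained after 24 h of auxin. Of the 395 sites with ZNF143 at 0 h, 260 (65.8%, 60.9 to 70.5) had it at 24 h, where 48.8% of all wild-type ZNF143 peaks found at 0 h did so. Triple sites kept ZNF143 in 32.4% (31.7 to 33.1), sites with RAD21 and no CTCF in 92.8% (90.5 to 94.7), and peaks with neither in 83.6% (82.8 to 84.4). Sites of the 785 exceeded the triple sites by 33.4 points (28.6 to 38.0) and differed from the peaks with neither by -17.8 points (-22.7 to -13.2). Weighted to the ZNF143 strengths of the sites, the peaks with neither kept 76.5% by wild-type strength, a difference of -10.7 points, and 69.5% by 0 h strength, a difference of -3.72 points. Counted over all 785 sites, 277 (35.3%) had a ZNF143 peak at 24 h, beside 36.2% of all wild-type ZNF143 peaks. The median 24 h ZNF143 signal at these 277 was 9.52 (quartiles 6.83 and 16.1), against 8.09 (6.66 and 10.1) at triple sites.

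The excess over triple sites was found at every ZNF143 strength, whereas its direction varied with CTCF strength. In each of the 10 groups of the ZNF143 list the RAD21-uncalled CTCF sites kept ZNF143 more often, with 60.8% (49.1 to 71.6) against 34.6% in the weakest and 97.4% (90.8 to 99.7) against 78.5% in the strongest. Triple sites weighted to the same ZNF143 strengths had 34.6%. Weighted to the same CTCF strengths they had 64.1%, close to the 65.8% of the 785 sites, and 57.9% against 63.6% outside the crowded windows. By CTCF group, the shares of the RAD21-uncalled CTCF sites were below those of triple sites in groups 1, 2 and 4 (1 is the weakest) and above them in the other 7, with overlapping intervals in several. In the weakest CTCF group, 82.5% (73.4 to 89.4) of the RAD21-uncalled CTCF sites and 95.5% (92.8 to 97.5) of triple sites kept ZNF143. In the seventh group the shares were 28.1% (13.7 to 46.7) and 15.1%.

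**Figure D4:**
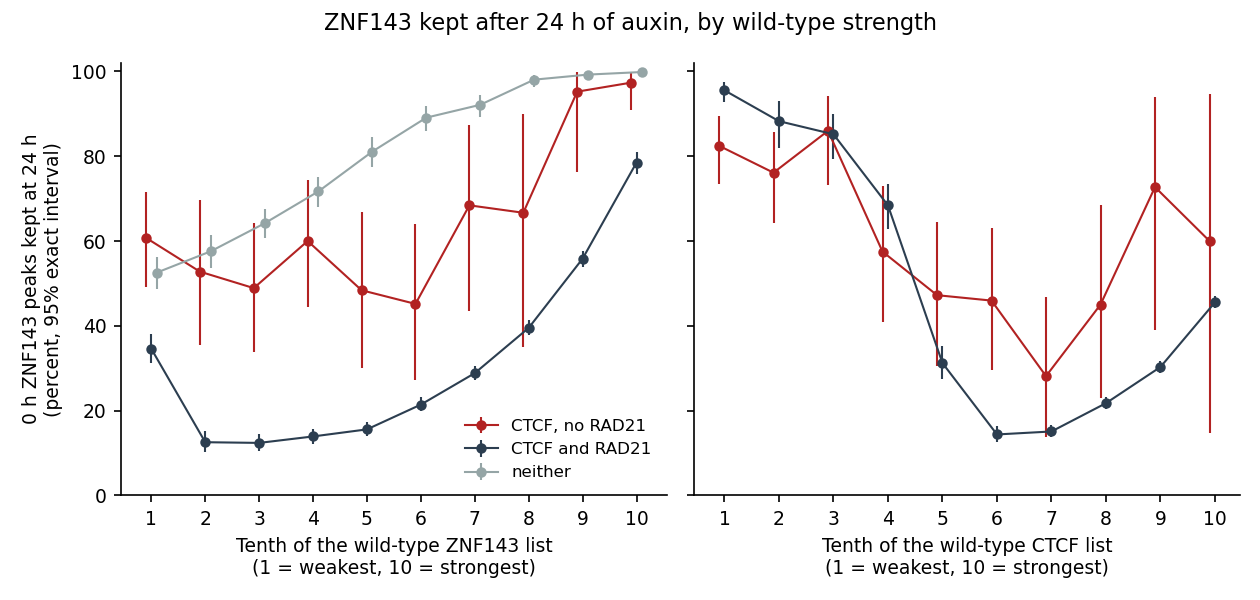
Share of 0 h ZNF143 peaks kept at 24 h of auxin (y axis, percent, with exact 95% intervals over sites), by strength group of the wild-type ZNF143 list (left) and of the wild-type CTCF list (right). RAD21-uncalled CTCF sites (red) lie above triple sites (dark) in all 10 ZNF143 groups but in 7 of 10 CTCF groups, and the peaks with neither (grey) have no CTCF rank.

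CTCF was rarely kept. Of the 317 sites with CTCF at 0 h, 36 (11.4%, 8.08 to 15.4) had it at 24 h, against 54.4% of all wild-type ZNF143 peaks with CTCF at 0 h and 55.2% of triple sites, a difference of -43.9 points (-47.0 to -39.9). Counted over all 785 sites, 42 (5.35%) had a 24 h CTCF peak, beside 36.1% of all wild-type ZNF143 peaks. CTCF at 0 h was weak at these sites, with a median signal of 8.33 and a median rank of 18.7, against 18.4 and 60.5 at triple sites. Triple sites weighted to the same 0 h CTCF strengths kept 23.2%, but their excess was not found in every strength group. In the weakest 0 h CTCF group, 7 of 100 RAD21-uncalled CTCF sites and 32.5% of triple sites kept CTCF. The RAD21-uncalled CTCF sites were higher in 3 of the 10 groups, with wide intervals. One was the fourth group, with 17.9% (7.54 to 33.5) against 11.9%. The sixth group held 10 of these sites, and each stronger group held fewer. Among the CTCF peaks without RAD21, 11.5% (8.12 to 15.7) were kept with ZNF143 and 2.65% (1.49 to 4.33) without, beside 5.69% of all of them. At the same CTCF strengths the peaks without ZNF143 kept 5.60%. Background reads fell to 3.88 per kb at 24 h from 12.8 at 0 h for this antibody, so that loss and shallower sampling cannot be told apart. With both CTCF lists held to 13865 peaks, the size of the shorter, CTCF was kept at 19 of only 31 remaining sites (61.3%) and at 83.6% of triple sites, a difference of -22.3 points (-39.8 to -7.33).

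At the 219 sites with both factors at 0 h, the most frequent outcome was ZNF143 without CTCF, at 109 sites (49.8%, 43.0 to 56.6). Neither was found at 76 (34.7%), both at 22 (10.0%, 6.40 to 14.8) and CTCF alone at 12 (5.48%). The 18014 triple sites with both at 0 h had ZNF143 alone in 3.30% of cases, neither in 26.5%, both in 28.7% and CTCF alone in 41.6% (40.9 to 42.3). The most frequent outcome of triple sites was thus among the rarest at the RAD21-uncalled CTCF sites, and the reverse. These shares were not weighted for strength. Over all sites with CTCF at 0 h, its median rank was 18.7 at the RAD21-uncalled CTCF sites and 60.5 at triple sites. The 24 h CTCF library was also the shallower one, and the part of strength and depth in this contrast was not tested.

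**Figure D5:**
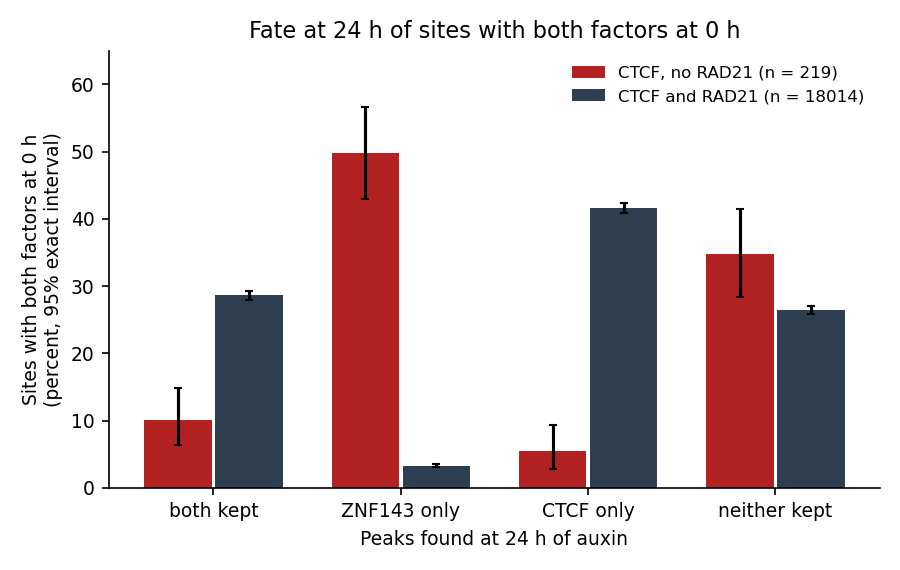
Percent of sites with both a ZNF143 and a CTCF peak at 0 h (y axis, exact 95% intervals over sites) by which peaks were found at 24 h of auxin (x axis), for 219 RAD21-uncalled CTCF sites (red) and 18014 triple sites (dark). ZNF143 alone was found at 49.8% and 3.30%, and CTCF alone at 5.48% and 41.6%. The shares are not weighted for strength.

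The strongest sites of each outcome show these patterns one by one. Their signals before and after auxin come from libraries of different depth, so they describe the peaks and do not measure a change in binding. ZNF143 stayed without CTCF at chr2:32288388-32288652, with ZNF143 signals of 24.3 at 0 h and 24.5 at 24 h beside a 0 h CTCF signal of 6.40. The same held at chr2:136499033-136499249, with 21.5 and 22.8 beside 10.6. At chr16:29874835-29874986 ZNF143 had 25.4 and 14.8, and CTCF went from 20.5 at 0 h to no peak.

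Both factors stayed at chr4:25314283-25314476, where the signal of ZNF143 was 25.9 before and 23.0 after auxin and that of CTCF 18.8 and 7.60, and where the summits lay 118 bp apart in wild type. They also stayed at chr16:70285798-70285979 (ZNF143 22.6 and 16.7, CTCF 18.0 and 8.03) and at chr6:41889127-41889256 (19.5 and 8.39, 22.4 and 9.60). All 3 had RAD21 in the knockout, with signals of 12.4, 11.3 and 8.29.

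Both factors were missing at 24 h from chr6:163591449-163591575, where they had signals of 22.4 for ZNF143 and 7.68 for CTCF at 0 h. The next sites of this kind were chr12:49437728-49437795 (11.6 and 12.6) and chr17:5095267-5095366 (12.0 and 10.9). Their wild-type summits lay 11, 1 and 3 bp apart, closer than at the sites that kept both or kept ZNF143 alone, which were 18 to 140 bp apart. These sites were picked by their outcome, so the distances describe them and nothing more.

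Retention after auxin was close at sites with and without a knockout RAD21 peak. ZNF143 was kept at 138 of 208 sites with knockout RAD21 (66.3%, 59.5 to 72.7) and 122 of 187 without it (65.2%, 57.9 to 72.0), a difference of 1.11 points whose interval runs from -8.17 to 10.4. CTCF was kept at 24 of 214 (11.2%) and 12 of 103 (11.7%), a difference of -0.436 points (-8.84 to 6.49). The 2 kinds of site did differ before auxin: ZNF143 was found at 0 h at 45.1% of sites with knockout RAD21 and 57.7% of those without, and CTCF at 46.4% and 31.8%.

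How overlap and list length are counted moved several of these shares. With every other list held to the size of its antibody's shortest, knockout CTCF was found at 5.22% of the sites, 0 h ZNF143 at 23.3% and 0 h CTCF at 3.95%, since only the strongest peaks then remain. Among the 176 sites in the upper 50% of the ZNF143 list, 90.3% had ZNF143 at 0 h. With a reciprocal overlap of 50% the rule picks 6545 sites, among them 372 of the 785. The rest of the 6545 overlapped both CTCF and RAD21 by at least 1 bp, so they were triple sites under the main rule. The 6545 keep ZNF143 10.2 points less often than triple sites chosen the same way, the opposite direction. That contrast thus sets mostly triple sites against other triple sites and does not describe the 785. With the 785 sites as chosen and only the other lists searched by that criterion, they kept ZNF143 35.1 points more often, but the share with knockout RAD21 was 11.2 points above that of triple sites (34.1% against 22.9%), also the opposite direction. By that criterion knockout CTCF was found at 30.7% of the 785 sites and 0 h CTCF at 19.5%. The cause was not tested.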

How the data were processed

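The 9 lists are the authors' deposited narrow-peak files, 1 per library. Per the submitters' processing notes, cutadapt 2.10, Bowtie2 2.3.5.1, SAMtools 1.12, MACS2 2.2.7.1 and deepTools were used with builds named GRCh37 and hg19; settings, filters and pooling are not given in the sources used here. The deposited signal was read as a fold ratio over background, as MACS2 writes it. The deposited −log10 p and −log10 q and the deposited score (the whole part of 10 times −log10 q at over 99.9% of peaks) complete each entry. Both knockout lists start at a −log10 q of 5.00, and the other lists at 3.00 to 3.02.

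Peaks on chromosomes 1 to 22 and X were overlapped (at least 1 bp), taking the strongest overlapping peak. Shares carry exact Clopper-Pearson 95% intervals and differences Newcombe 95% intervals. Weighted shares average the 10 strength groups of a list in the proportions of the 785 sites. Summit counts and background were solved from signal and −log10 p under a Poisson model with 1 added to both, which reproduced −log10 p within 0.002 at 100% of peaks; the most frequent background over the shortest peak length gave reads per kb. This derivation was chosen after the values were seen. Read totals are not given in the sources used here.

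Named sites follow a rule: the 3 strongest by ZNF143, by CTCF, by knockout RAD21, by CTCF without it, and by ZNF143 for each of 3 auxin outcomes, plus the 2 nearest the rule's edge on either side. The sites, rule and comparisons were chosen with earlier results of these data known. Coordinates are 1-based. No sequence or gene annotation of build hg19 was used here, so planned motif and gene context were left out. Overlap calls were checked on the wild-type ZNF143 and RAD21 peaks of chromosome 21 against a comparison of all pairs (0 of 432 differed). Summit counts were tested on simulated data (0 of 2000 simulated counts wrong). The work used scipy 1.17.1, pandas 2.3.3 and numpy 2.4.6 under Python 3.11.15, with plots from matplotlib 3.10.9.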

Additional observations from a re-analysis of the deposited data

Results flagged for a closer look

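The comparisons used chromosomes 1 to 22 and X. Outside them the wild-type ZNF143 list held 441 peaks, of which 51 (11.6%, exact 95% interval 8.73 to 14.9) overlapped CTCF and not RAD21. They are listed because no comparison used them. The share was 2.13% on the chromosomes used, and the difference between these shares was not tested.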

How the results depend on the processing

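No paired analysis was possible because each group held 1 library. Of 64 alternative values of 8 results, 37 stayed within the interval of the reported value (for the number of sites, within 1.5 times) and 27 moved; the cause was not tested. The values that stayed include the knockout RAD21 and CTCF shares with the other lists at a −log10 q of at least 5. Those could not move, since both knockout lists start at 5.00. The crowded windows and the search of other lists by reciprocal overlap were alternatives chosen after seeing the data. In the order knockout RAD21, knockout CTCF, 0 h ZNF143, 0 h CTCF, kept ZNF143, kept CTCF, the shares were as follows. With a reciprocal overlap of 50% throughout (6545 sites, mostly triple sites under the main rule) they were 7.75%, 32.9%, 67.7%, 14.9%, 23.3% and, within the interval, 8.92%. With the 785 sites kept and that criterion used in the other lists they were 34.1%, 30.7%, 37.6%, 19.5%, 60.0% and 7.84%. With each other list held to the size of its antibody's shortest list they were 42.3%, 5.22%, 23.3%, 3.95%, 90.2% and 61.3%. In the upper 50% of the ZNF143 list (176 sites), 0 h ZNF143 was found at 90.3% and 0 h CTCF at 50.6%, with 81.1% and 16.9% kept. With sites drawn from peaks at a −log10 q of at least 5, 0 h ZNF143 was 54.0%, and with no RAD21 peak within 500 bp, 0 h CTCF was 35.6%. Without the crowded windows, knockout CTCF was 88.9% and 0 h ZNF143 46.8%. Every alternative kept the share of CTCF retained below that of triple sites. The 785 sites are few and weak (median ZNF143 summit count 10 reads). A missing peak in another list, shallower or deeper, therefore does not show that the factor was absent.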

Other observations

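The RAD21-uncalled CTCF sites occurred on every chromosome examined. They made up 3.94% (exact 95% interval 2.31 to 6.23) of the ZNF143 peaks of chromosome 21, 17 of 432, and 3.35% (2.51 to 4.37) of those of chromosome 16, 52 of 1552, the highest shares. Each of these chromosomes held 2 of the 22 windows with 3 sites or more, and those of chromosome 21 held 5 and 4 of its 17 sites. Such windows also lay on chromosomes with lower shares, among them chromosome 2 (2.31%) and chromosome 10 (2.26%).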
